A study of Mus musculus with 3 samples.

Results

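The genes described here encode chaperones, folding enzymes, degradation factors and stress sensors of the endoplasmic reticulum (ER). They were taken from a list of 36 named genes and followed in single cells of mouse islets with and without *Taf4*, a subunit of the general transcription factor TFIID. All 36 were found among the 14464 genes listed in every library, with *Hm13* under its older symbol H13. By role they comprised 9 chaperones and co-chaperones, 2 lectin chaperones, 8 disulphide isomerases and thioredoxin-like proteins, 3 prolyl isomerases, 10 degradation factors and 4 sensors, *Xbp1*, the factor acting below *Ern1*, being counted with the sensors. Their UMIs (unique molecular identifiers, each standing for 1 captured RNA molecule) were summed over the beta, alpha and delta cells of each library.

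Proteins bound for secretion enter the ER unfolded. *Hspa5* (BiP) and its co-chaperones hold them, the lectins *Calr* and *Canx* bind their glycans, disulphide isomerases form and rearrange their cysteine bonds, and prolyl isomerases turn their proline bonds. What fails to fold is drawn back through the membrane by a complex built around the ubiquitin ligase *Syvn1* and degraded by the proteasome. When unfolded protein accumulates, the sensors *Atf6*, *Ern1* and *Eif2ak3* start the unfolded protein response, in which cleaved *Atf6* and spliced *Xbp1* activate many of the genes listed here. Beta cells make proinsulin in very large amounts and are known to depend on this machinery.

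Libraries came from islets of C57/Bl6 mice. Mutant animals (*Taf4* b-/-) carried floxed *Taf4* alleles and the Ins1::Cre-ERT2 driver, which limits deletion to insulin-expressing cells. Tamoxifen was injected into adult animals on 3 days, and the mutant islets were taken 1 week or 5 weeks later. Each mutant library pooled 300 islets from 2 male mice, and the control library held 300 islets from 1 mouse labelled male and Wild type, with no time after tamoxifen given. Control animals of the study were *Taf4* +/+ and received tamoxifen, but the labels do not say whether the mouse of this library did or carried the driver. The 3 libraries thus stand for 1 library per condition, and genotype, animals, time and library preparation cannot be told apart. The study asked what loss of *Taf4* does to gene expression in each islet cell type.

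Cells were classed by hormone. A cell counted as beta with at least 20% of its UMIs from *Ins2* and under 3% from *Gcg*, as alpha with at least 15% from *Gcg* and under 10% from *Ins2*, and as delta with at least 5% from *Sst*. At 1 week the lower limits for *Ins2*, *Gcg* and *Sst* were 5%, 8% and 1.5%, in cells of at least 5000 UMIs. These gates gave 8269 beta, 2772 alpha and 619 delta cells in WT, 561, 172 and 37 at 1 week, and 5557, 2938 and 1242 at 5 weeks. The deposited libraries held 19472212, 23131247 and 39408284 UMIs. Median UMIs per beta cell were 1656 in WT, 24764 at 1 week and 3899 at 5 weeks, and 66.4% of the 2295 barcodes at 1 week met no gate, against 2.82% of 12000 in WT and 11.5% of 11229 at 5 weeks. A level is the number of UMIs of a gene per 1000000 UMIs of the class without the 8 hormone genes (CPM). UMIs are read at the 3′ end, once per molecule, so levels were not divided by length. Leaving hormones out matters for every comparison below, since they took different shares of the UMIs. Keeping them in the totals moves all log2 ratios over WT by 0.84, 0.34 and 0.27 at 1 week and by 0.07, -0.14 and 0.04 at 5 weeks in beta, alpha and delta cells, and the library in which a member is highest is the same on both scales for 20 of 36 members in beta cells and 24 in alpha cells. Any order of libraries given below is on the scale without hormones, and where it turns the value or the order with hormones kept is given. Ranges in parentheses are exact 95% intervals and cover counting error only.

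Several features of the libraries bear on what follows. The WT library went against its label of sex: *Xist* stood at 2102 CPM in its beta cells and the 4 Y-linked genes looked for had no UMI in any class, whereas the mutant beta cells held *Ddx3y* at 104.9 and 83.6 CPM with 11 and 9 *Xist* UMIs. *Taf4* itself gave 75, 113 and 97 UMIs in beta cells of WT, 1 week and 5 weeks, or 14.6 CPM (11.5 to 18.3), 13.2 CPM (10.9 to 15.9) and 10.5 CPM (8.52 to 12.8). Where the deleted exons lie relative to the 3′ end is not given in the sources used here, so these counts check nothing about deletion. Markers of acinar cells, the enzyme-secreting cells around the islets, summed to 15541 CPM in WT beta cells, 27.8 at 1 week and 1685 at 5 weeks. All 10 acinar genes had UMIs in every class but 1-week alpha cells (7, with *Cela2a*, *Pnlip* and *Cel* at 0) and 1-week delta cells (3, with *Prss2*, *Cela2a*, *Cpa1*, *Pnlip*, *Clps*, *Cel* and *Try5* at 0), and their sums ran from 18807 to 22127 CPM in WT alpha and delta cells, from 7.93 to 10.0 at 1 week and from 3166 to 3738 at 5 weeks. Endothelial markers summed to between 5.56 and 55.4 CPM and macrophage markers to between 20.4 and 196 CPM over the 9 classes. *C1qa* gave most of the macrophage sum, from 28 of 55 UMIs in 1-week alpha cells to 990 of 1003 in WT beta cells and 271 of 274 in 5-week alpha cells. Hormones took 68.0%, 42.8% and 66.5% of beta cell UMIs, mitochondrial transcripts 10.7%, 5.60% and 9.42% of the other UMIs, and the nuclear RNA *Malat1* 14072, 42613 and 35061 CPM, each in the order WT, 1 week and 5 weeks. The gated cells carried their markers, with *Ins2* at 1368230 CPM in WT beta cells against 45916 in alpha and 61994 in delta cells, *Gcg* at 582666 CPM in WT alpha against 5764 in beta cells, and *Sst* at 228564 CPM in WT delta against 785 in beta cells. Barcodes shared between libraries numbered 2 for WT and 1 week, 33 for WT and 5 weeks, and 5 for the mutants. Cells inside more than 1 gate (2, 1 and 201) were left out as possible doublets, and no doublet caller was run, though the authors had filtered the WT library for doublets.

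Promoter sequences are shown for 6 genes on which the results below turn, since many ER chaperone genes carry a known ER stress element. The motifs searched on both strands were ERSE (CCAAT and CCACG with 9 bases of any kind between them), ERSE-II (ATTGG and CCACG with 1 base of any kind between them) and UPRE (TGACGTGG), in windows from 250 bases before to 50 after the RefSeq transcription start. Capitals mark a match to ERSE in *Hspa5*, *Hsp90b1* and *Calr* and to ERSE-II in *Herpud1*, and *Fkbp11* and *Fkbp2* held no match to any of the 3. Only the 250 bases before the start are printed, 5′ to 3′ on the strand of the gene, from RefSeq on GRCm38.p6 (mm10, the build of the files): chr2:34771840-34772089 (+), chr10:86705445-86705694 (-), chr8:84846932-84847181 (-), chr8:94386179-94386428 (+), chr15:98728199-98728448 (-) and chr19:6980465-6980714 (-).
Hspa5: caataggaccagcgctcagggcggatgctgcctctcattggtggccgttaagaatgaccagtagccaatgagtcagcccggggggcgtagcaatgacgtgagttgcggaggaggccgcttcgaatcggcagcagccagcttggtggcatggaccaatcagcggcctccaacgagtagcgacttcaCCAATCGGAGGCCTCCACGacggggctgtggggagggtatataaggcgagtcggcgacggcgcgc
Hsp90b1: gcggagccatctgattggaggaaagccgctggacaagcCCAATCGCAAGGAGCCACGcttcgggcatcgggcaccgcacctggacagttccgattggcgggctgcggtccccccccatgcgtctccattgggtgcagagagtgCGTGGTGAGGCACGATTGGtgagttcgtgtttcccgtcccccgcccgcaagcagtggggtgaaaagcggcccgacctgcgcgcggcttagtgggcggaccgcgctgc
Calr: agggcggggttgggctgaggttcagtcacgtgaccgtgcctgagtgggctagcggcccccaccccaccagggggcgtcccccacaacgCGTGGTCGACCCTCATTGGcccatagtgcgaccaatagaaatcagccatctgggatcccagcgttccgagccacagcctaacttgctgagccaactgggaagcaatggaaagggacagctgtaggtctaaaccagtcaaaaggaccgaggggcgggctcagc
Herpud1: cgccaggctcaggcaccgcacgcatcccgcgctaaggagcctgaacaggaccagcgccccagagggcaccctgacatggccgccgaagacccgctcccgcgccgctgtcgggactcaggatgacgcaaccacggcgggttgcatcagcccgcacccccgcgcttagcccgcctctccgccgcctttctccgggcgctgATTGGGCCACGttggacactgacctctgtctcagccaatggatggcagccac
Fkbp11: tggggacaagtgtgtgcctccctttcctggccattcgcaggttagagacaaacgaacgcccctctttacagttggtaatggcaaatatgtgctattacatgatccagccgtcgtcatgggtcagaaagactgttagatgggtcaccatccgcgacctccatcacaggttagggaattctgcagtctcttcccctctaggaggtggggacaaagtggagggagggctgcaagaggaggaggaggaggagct
Fkbp2: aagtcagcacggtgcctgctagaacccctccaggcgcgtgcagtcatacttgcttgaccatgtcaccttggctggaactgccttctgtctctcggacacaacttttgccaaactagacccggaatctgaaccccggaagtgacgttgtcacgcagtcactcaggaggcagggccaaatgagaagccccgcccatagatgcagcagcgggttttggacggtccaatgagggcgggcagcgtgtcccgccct

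Promoters were found for 30 of the 36 genes, the exceptions being *Hyou1*, *Manf*, *Erp29*, *Derl1*, *Erlec1* and *Atf6*. ERSE occurred in 9 of the 30, namely *Hspa5*, *Hsp90b1*, *Dnajc3*, *Creld2*, *Calr*, *Canx*, *Pdia6*, *Syvn1* and *Derl3*, and in 0.119% of the 32851 promoters of the table. ERSE-II occurred in *Dnajb11* and *Herpud1* and in 0.0365% of all promoters, and UPRE in *Txndc5* and *Txndc11* and in 0.676%. In *Hspa5* the ERSE match began 65 bases before the start. *Hsp90b1* held 2 matches, 212 and 107 bases before the start and on opposite strands, *Calr* held 1 that began 162 bases before it, and the ERSE-II match of *Herpud1* began 52 bases before it. A match is a run of letters and says nothing about use of the site in these cells.

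In WT islets the ER genes were highest in beta cells on the scale without hormones. The 36 genes together gave 13701 CPM (13599.5 to 13802, from 70287 UMIs) in beta cells, 5696 CPM (5571 to 5824, from 7860 UMIs) in alpha cells and 8403 CPM (8075 to 8741, from 2472 UMIs) in delta cells. The log2 ratio of the sum was 1.27 (1.23 to 1.30) for beta over alpha cells and 0.71 (0.65 to 0.76) for beta over delta cells. Among the 36, 23 were at least 2-fold higher in beta than in alpha cells and none was 2-fold lower, against 15.8% of all 6825 genes with 100 or more UMIs that were 2-fold higher and 2.75% that were lower. Against delta cells 13 of 36 were 2-fold higher and none lower, where the shares of all genes were 12.9% and 5.46%. The 100 UMIs were counted over both classes, so a scarce gene could pass through its beta UMIs alone. Of the 13, *Derl3* had 0 UMIs in delta cells, a count of 0 being taken as 3 for such calls. *Edem1*, *Sel1l*, *Dnajb11*, *Hyou1* and *Creld2* had 10 to 13 UMIs there. Of the 23 higher than in alpha cells, *Derl3* had 1 UMI in alpha cells and *Edem1* 24. *Dnajb11*, *Sel1l*, *Hyou1* and *Creld2* had 37 to 51 in alpha cells. Gated alpha cells also held beta transcripts, the 11 listed beta markers summing to 58723 CPM against 1644770 in beta cells, and how far such RNA sets the alpha levels was not tested. With hormones kept in the totals the sum was 0.39 for beta over alpha cells and turned to -0.36 for beta over delta cells. On that scale 7 members were 2-fold higher and *Os9* 2-fold lower in beta than in alpha cells, and none was higher and 5 were lower against delta cells. Of all genes, 4.44% were then higher and 20.6% lower against alpha cells, and 2.74% higher and 46.6% lower against delta cells.

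**Figure D1:**
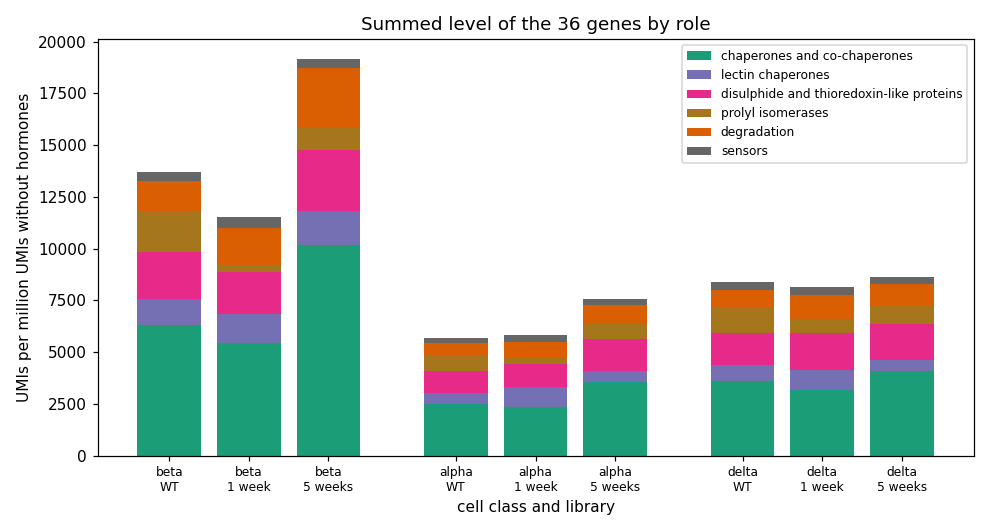
Summed level of the 36 ER genes in each cell class (beta, alpha, delta) and library (WT, 1 week, 5 weeks), in UMIs per 1000000 UMIs without hormones, with 1 bar per class and library and colours for the role of the genes. On this scale beta cells are the highest class in each library, and their bar at 5 weeks is the tallest at 19174 CPM; with hormones kept, beta cells of WT lie below delta cells (log2 ratio -0.36) and those of 5 weeks at -0.03 relative to 1 week.

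Role by role, the WT beta cells held 6313 CPM from chaperones and co-chaperones, 2246 from disulphide isomerases and thioredoxin-like proteins, 2024 from prolyl isomerases, 1421 from degradation factors, 1254 from lectin chaperones and 442 from sensors. The highest single member was *Manf*, a small ER protein that binds *Hspa5* and can be secreted, at 1791 CPM (1754 to 1828). *Hsp90b1* (GRP94), the ER member of the HSP90 family, followed at 1394 CPM (1362 to 1427). *Fkbp2*, a prolyl isomerase of the FK506-binding family, stood at 1225 CPM (1195 to 1256) and *Hspa5* at 1167 CPM (1137 to 1197), and their intervals overlapped at the edge. The co-chaperone *Dnajb9* came next at 754 CPM (731 to 778). The intervals of *Pdia6*, at 671 CPM (649 to 694), and *Calr*, at 662 CPM (639.7 to 684), overlapped, and the lowest members were *Eif2ak3* at 27.9 CPM (23.5 to 32.8), *Syvn1* at 25.9 CPM (21.7 to 30.7) and *Derl3* at 24.6 CPM (20.5 to 29.2).

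Among single genes the beta over alpha log2 ratio in WT ran from -0.14 for *Os9* to 5.08 (2.58 to 10.40) for *Derl3*, which had 126 UMIs in beta cells and 1 in alpha cells. *Derl3*, a derlin of the membrane channel of ER degradation, had at 5 weeks 315 UMIs in beta cells against 6 in alpha cells, a log2 ratio of 4.12 (2.98 to 5.58). *Fkbp11*, a prolyl isomerase anchored in the ER membrane, was 6.49-fold higher in beta than in alpha cells of WT, and *Derl2*, another derlin, 5.56-fold higher. *Edem1*, a mannosidase-like protein that marks glycoproteins for disposal, was 4.30-fold higher, from 384 UMIs in beta cells and 24 in alpha cells. The beta over alpha ratio of *Fkbp11* was -0.20 (-0.77 to 0.41) at 1 week and 2.31 (2.07 to 2.56) at 5 weeks, an interval that held 0 at 1 week. At 1 week 16 of the 35 members with 100 UMIs were 2-fold higher in beta than in alpha cells (15.8% of all genes), and at 5 weeks 25 of 36 (11.0%), with none lower in either (4.34% and 6.94% of all genes). Against delta cells 5 of 35 were higher at 1 week (9.50%) and 20 of 36 at 5 weeks (8.07%), and at 1 week *Txndc5* and *Fkbp11* were 2-fold lower (6.50% of all genes), while none was at 5 weeks (8.58%). With hormones kept, 7 members at 1 week and 9 at 5 weeks were higher in beta than in alpha cells, and none was lower. Of all genes, 8.04% at 1 week and 3.24% at 5 weeks were then higher, and 8.16% and 20.4% lower. Against delta cells 2 members were higher at either time, with 3 lower at 1 week and 2 at 5 weeks. The shares of all genes there were 4.12% and 1.49% higher, and 17.6% and 51.1% lower.

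In beta cells the sum of the 36 genes was higher at 5 weeks than in WT on both scales, and lower at 1 week on the scale without hormones alone. It stood at 13701 CPM (13599.5 to 13802) in WT, 11511 CPM (11439 to 11583) at 1 week and 19174 CPM (19084 to 19263) at 5 weeks, and the 3 intervals did not overlap. The log2 ratio over WT was -0.25 (-0.27 to -0.24) at 1 week and 0.48 (0.47 to 0.50) at 5 weeks. Both ratios use the same WT library, and that of 5 weeks over 1 week, which does not, was 0.74 (0.72 to 0.75), or -0.03 with hormones kept. With hormones kept in the totals the 1-week ratio turned to 0.59, while that at 5 weeks was 0.55. *Hspa5* made up 8.52% of the members' UMIs in WT, 23.3% at 1 week and 21.98% at 5 weeks, and without it the ratios were -0.50 and 0.26. In alpha cells the sum was 5696 CPM (5571 to 5824) in WT, 5828 CPM (5737 to 5919.6) at 1 week and 7556 CPM (7458 to 7654) at 5 weeks, with log2 ratios over WT of 0.03 (-0.01 to 0.07), which was -0.08 in cells of 2000 or more UMIs and 0.37 with hormones kept, and 0.41 (0.37 to 0.44). Delta cells gave 8403 CPM (8075 to 8741), 8142 CPM (7895 to 8395) and 8641 CPM (8469.9 to 8815), ratios of -0.05 (-0.12 to 0.03) and 0.04 (-0.02 to 0.10) whose intervals both held 0.

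The roles did not move together. At 1 week the prolyl isomerases of beta cells fell from 2024 CPM (1986 to 2064) to 373 CPM (359.7 to 386), 5.43-fold, and at 5 weeks stood at 1065 CPM (1044 to 1086). The degradation factors lay above WT, with log2 ratios over WT of 0.31 (0.27 to 0.35) at 1 week and, at 5 weeks, of 1.03 (0.99 to 1.06), which is 2.04-fold. Without *Herpud1* they gave 0.12 (0.08 to 0.17) and 0.30 (0.25 to 0.34), and the median over the 10 factors was 0.45 and 0.47. Chaperones and co-chaperones gave -0.22 (-0.24 to -0.20) and 0.69 (0.67 to 0.70), and without *Hspa5* -0.90 (-0.93 to -0.87) and 0.21 (0.19 to 0.23). Lectin chaperones gave 0.18 (0.14 to 0.23) and 0.41 (0.36 to 0.45), and disulphide isomerases with thioredoxin-like proteins -0.18 (-0.21 to -0.14) and 0.40 (0.37 to 0.43). With hormones kept, the 1-week values of the chaperones and of the disulphide isomerases turned to 0.62 and 0.66. The chaperones without *Hspa5* came to -0.06 at 1 week, and the prolyl isomerases to -1.60. On that scale degradation factors, with or without *Herpud1*, lectin chaperones and disulphide isomerases were highest at 1 week and lowest in WT. The sensors gave 0.28 (0.21 to 0.35) at 1 week and -0.02 (-0.10 to 0.05) at 5 weeks, an interval that held 0, and the latter came to 0.04 with hormones kept.

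At 1 week *Hspa5*, *Os9*, *Atf6* and *Ern1* rose in beta cells and *Fkbp11*, *Derl3*, *Fkbp2*, *Manf*, *Ppib*, *Sdf2l1* and *Dnajb9* fell. A gene was counted as risen or fallen when its levels in the 2 libraries differed at least 2-fold and it had 100 or more UMIs over both, a rule of size, since 1 library per condition allows no test. All 36 members had the UMIs, 4 rose and 7 fell, against 16.8% of 9213 genes that rose and 7.21% that fell. The median log2 ratio was -0.27 over the members and 0.31 over all genes. With hormones kept in the totals, which raised every log2 ratio at 1 week in beta cells by 0.84, 11 members rose and 4 fell, where 57.7% of all genes rose and 2.38% fell. In cells of 2000 or more UMIs *Derl2* also fell, at -1.02. With the WT gates applied to the 1-week library, which gave 1140 beta cells, *Os9* was the only member that rose and 7 fell, as *Hspa5*, *Atf6* and *Ern1* came to 0.96, 1.00 and 0.91. None of the 11 changed the direction of its ratio under any alternative tried.

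**Figure D2:**
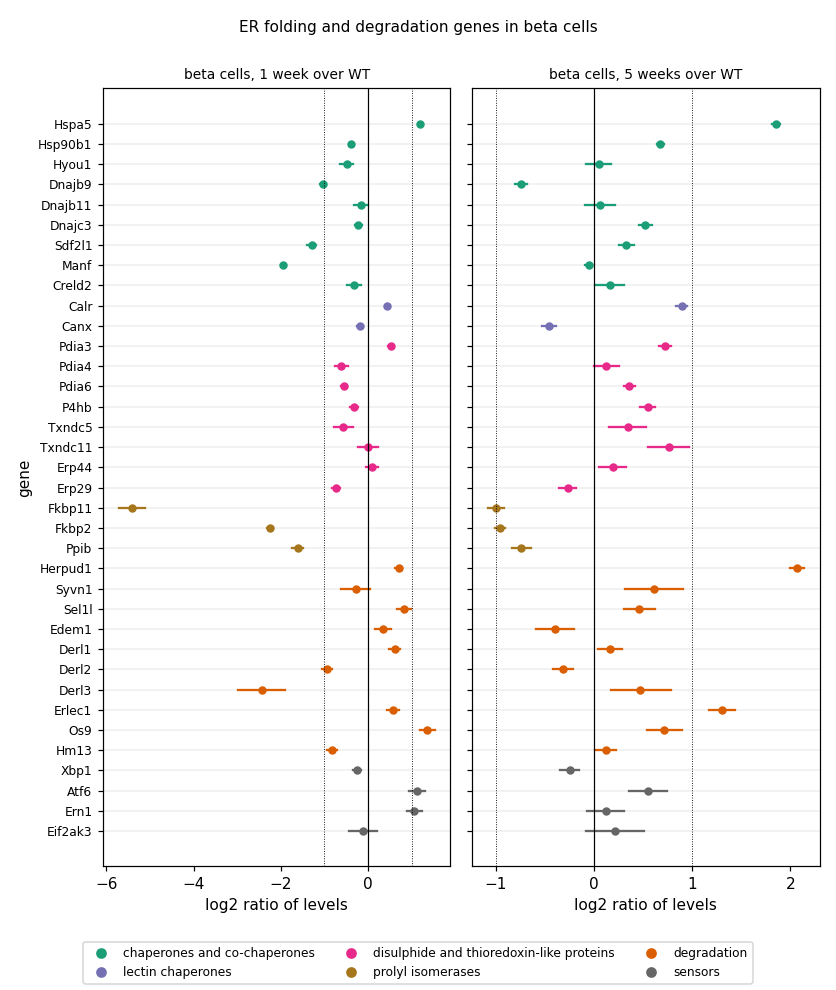
Log2 ratio of the level of each of the 36 ER genes in beta cells, 1 week over WT (left) and 5 weeks over WT (right), with exact 95% intervals for counting error as bars, colours for the role of the genes and dotted lines at 2-fold. At 1 week the points spread from -5.40 for Fkbp11 to 1.36 for Os9, and at 5 weeks, on an axis of another range, from -0.99 for Fkbp11 to 2.07 for Herpud1.

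Of the chaperones, *Hspa5* gave 1167 CPM (1137 to 1197, from 5986 UMIs) in WT beta cells, 2678 CPM (2644 to 2713, from 22919 UMIs) at 1 week and 4214 CPM (4172 to 4256, from 38918 UMIs) at 5 weeks. It was highest at 5 weeks and lowest in WT, with no overlap of the intervals, and with hormones kept it was highest at 1 week, at log2 ratios over WT of 2.04 and 1.92. Without hormones it was 2.30-fold above WT at 1 week and 3.61-fold at 5 weeks. *Manf* gave 1791 CPM (1754 to 1828, from 9187 UMIs), 466 CPM (451 to 480.4, from 3986 UMIs) and 1726 CPM (1699 to 1753, from 15939 UMIs), so that it was 3.84-fold lower at 1 week and at a log2 ratio of -0.05 (-0.09 to -0.02) at 5 weeks, which turned to 0.01 with hormones kept. *Hsp90b1* gave 1394 CPM (1362 to 1427), 1070.2 CPM (1048 to 1092) and 2231 CPM (2200.3 to 2261), log2 ratios of -0.38 (-0.43 to -0.34) and 0.68 (0.64 to 0.72). *Hspa5* and *Hsp90b1*, which chaperone clients in the same compartment, therefore stood on opposite sides of WT at 1 week and on the same side at 5 weeks. That holds on the scale without hormones, as *Hsp90b1* came to 0.46 at 1 week with hormones kept.

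The co-chaperones of *Hspa5* were mostly lower at 1 week on the scale without hormones. *Dnajb9* (ERdj4) gave 754 CPM (731 to 778) in WT, 370.4 CPM (358 to 384) at 1 week and 451 CPM (437 to 465) at 5 weeks, lowest at 1 week, with a log2 ratio of -1.03 (-1.09 to -0.96) that lay across the 2-fold line. With hormones kept *Dnajb9* gave -0.19 at 1 week and -0.68 at 5 weeks, so that the call was lost and 5 weeks was lowest. *Sdf2l1*, which acts with *Dnajb11*, gave 359 CPM (343 to 376), 147 CPM (139 to 155) and 452 CPM (439 to 466), 2.45-fold lower than WT at 1 week or, with hormones kept, at a log2 ratio of -0.46 that is under 2-fold, and above WT at 5 weeks by 0.33 (0.25 to 0.41). *Dnajc3* (P58IPK), a lumenal co-chaperone, gave -0.22 (-0.29 to -0.14) at 1 week and 0.52 (0.46 to 0.59) at 5 weeks. *Hyou1*, the nucleotide exchange factor of *Hspa5*, gave -0.49 (-0.64 to -0.35) and 0.05 (-0.08 to 0.18), the latter turning to -0.10 in cells of 2000 or more UMIs. The values of *Dnajb11* (ERdj3) were -0.16 (-0.32 to -0.00) and 0.06 (-0.09 to 0.22), and those of *Creld2* -0.33 (-0.48 to -0.17) and 0.16 (0.02 to 0.31), all within 2-fold. With hormones kept, the 1-week ratios of *Dnajc3*, *Hyou1*, *Dnajb11* and *Creld2* turned positive.

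**Figure D3:**
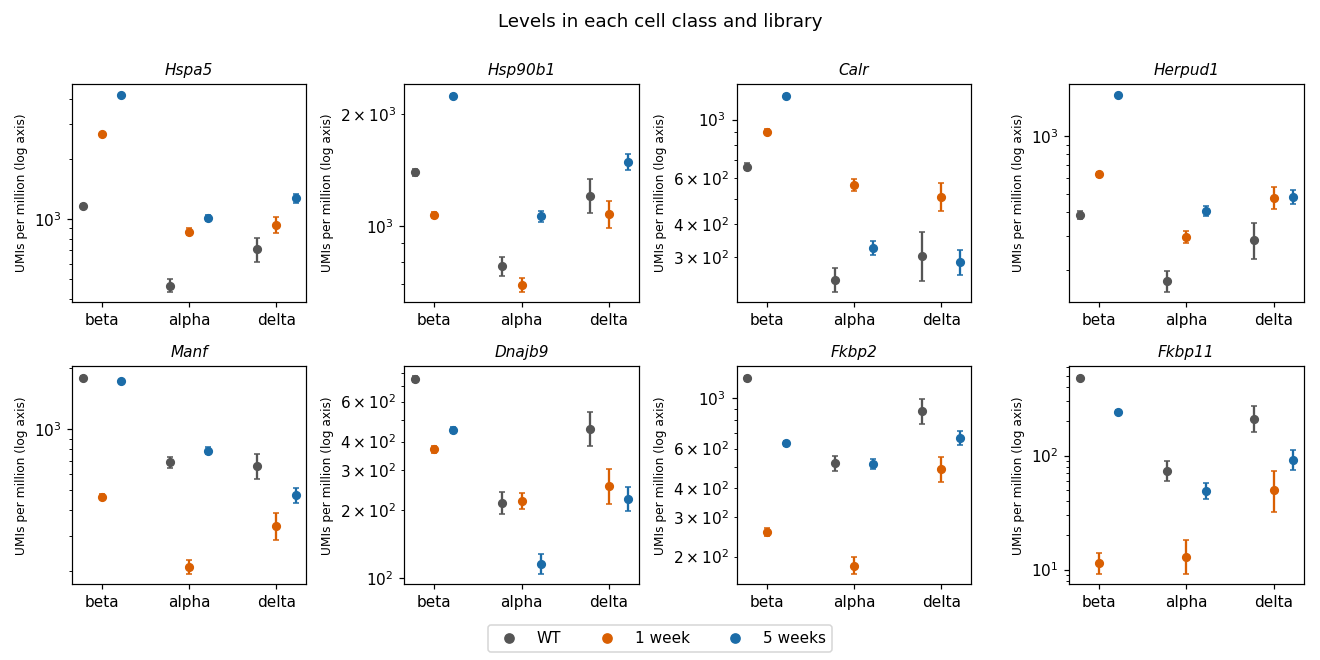
Levels of 8 ER genes in beta, alpha and delta cells of WT, 1 week and 5 weeks, in UMIs per 1000000 UMIs without hormones on log axes that differ between genes, with exact 95% intervals for counting error as bars. On this scale Hspa5 and Herpud1 are lowest in WT and highest at 5 weeks in beta and alpha cells, and with hormones kept Hspa5 in both classes and Herpud1 in alpha cells are highest at 1 week; Fkbp11, Fkbp2 and Manf are lowest at 1 week in beta and alpha cells on both scales.

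The lectin chaperones lay on opposite sides of WT at 5 weeks. *Calr*, the soluble one, gave 662 CPM (639.7 to 684) in WT, 898 CPM (878 to 918) at 1 week and 1230.0 CPM (1207 to 1253) at 5 weeks, highest at 5 weeks with a log2 ratio of 0.89 (0.84 to 0.95) that stayed under 2-fold. With hormones kept *Calr* was highest at 1 week, at 1.28 against 0.96 at 5 weeks, and past 2-fold there. Its membrane-bound relative *Canx* gave 592 CPM (571 to 613), 523 CPM (508 to 539) and 431 CPM (418 to 444), lowest at 5 weeks with a log2 ratio of -0.46 (-0.53 to -0.39), while its 1-week ratio of -0.18 turned to 0.66 with hormones kept. Both promoters held an ERSE match.

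Among the 8 disulphide and thioredoxin-like genes none passed 2-fold in beta cells at either time. Their 1-week log2 ratios ran from -0.74 for *Erp29* to 0.52 for *Pdia3*, the partner of *Calr* and *Canx* in folding glycoproteins, with a median of -0.44, and the 6 negative ones turned positive (0.10 to 0.83) with hormones kept. At 5 weeks they ran from -0.27 for *Erp29*, a relative without the active-site cysteines, to 0.76 for *Txndc11*, with a median of 0.35. *Pdia3* gave 509.9 CPM (491 to 529.8), 729 CPM (712 to 748) and 843 CPM (824 to 862), with hormones kept 1.35 at 1 week and 0.79 at 5 weeks on the log2 scale. *Pdia6*, which gave 671 CPM (649 to 694), 455 CPM (441 to 470.0) and 862 CPM (843 to 881), was lowest at 1 week, or lowest in WT with hormones kept. *P4hb* (PDI) gave -0.32 (-0.41 to -0.23) and 0.55 (0.47 to 0.63), and *Pdia4* -0.61 (-0.75 to -0.46) and 0.13 (-0.00 to 0.25). *Txndc5* stood at -0.57 (-0.79 to -0.35) and 0.34 (0.16 to 0.53), and *Erp44*, which retrieves unfinished proteins from the Golgi, at 0.10 (-0.04 to 0.24) and 0.19 (0.06 to 0.33).

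All 3 prolyl isomerases fell in beta cells at 1 week, and *Fkbp11* gave the lowest ratio of the 36 at both times. *Fkbp11* gave 479.9 CPM (461 to 499, from 2462 UMIs) in WT beta cells, 11.3 CPM (9.19 to 13.8, from 97 UMIs) at 1 week and 241 CPM (231 to 251, from 2227 UMIs) at 5 weeks. It was 42.3-fold lower at 1 week, a log2 ratio of -5.40 (-5.71 to -5.11), and at 5 weeks it was 1.99-fold lower, a log2 ratio of -0.99 (-1.08 to -0.91) that lay just inside the 2-fold line. *Fkbp2* gave 1225 CPM (1195 to 1256, from 6287 UMIs), 257 CPM (246 to 268, from 2199 UMIs) and 632 CPM (616 to 649, from 5841 UMIs), 4.77-fold lower at 1 week and 1.94-fold lower at 5 weeks. *Ppib* (cyclophilin B) gave 319 CPM (304 to 335), 104 CPM (97.5 to 111) and 191 CPM (183 to 201), 3.06-fold lower at 1 week, or -0.78 on the log2 scale with hormones kept, which is under 2-fold. All 3 were highest in WT and lowest at 1 week on both scales, with no overlap of intervals between libraries on the scale without hormones.

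Measures of another kind moved with these genes. The 3 isomerases have the shortest transcripts of the set, at 731, 642 and 960 nt for *Fkbp11*, *Fkbp2* and *Ppib* in the longest annotated form. The 505 genes of up to 1000 nt had a median 1-week log2 ratio of -0.44 in beta cells, where the 3 isomerases gave -2.25. The median was 0.25 for genes up to 2000 nt, 0.44 up to 4000 nt and 0.33 for the 2685 genes above that. Over the 36 members, which share libraries and totals, Spearman's rho of the 1-week ratio with transcript length was 0.53. Over 8185 genes with a length it was 0.10. For the 5-week ratio it was 0.16 over the members and -0.05 over 8100 genes. The second is acinar RNA, which was highest in WT. If every acinar marker UMI in WT beta cells had come with acinar RNA like that of the 79 cells with at least 20% acinar marker UMIs, it would account for 2.14% of the *Fkbp11* UMIs, 0.477% of those of *Fkbp2*, 3.88% of those of *Ppib* and 0.795% of those of the 36 genes together. With that RNA taken out the counts of risen and fallen members at 1 week stayed at 4 and 7. What part transcript length or acinar RNA had in these ratios was not tested.

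Of the degradation factors, *Os9* rose at 1 week, *Herpud1* and *Erlec1* at 5 weeks, and *Derl3* fell at 1 week. *Herpud1*, which gathers the *Syvn1* complex, gave 387 CPM (370.3 to 405, from 1986 UMIs) in WT beta cells, 629.9 CPM (613 to 647, from 5391 UMIs) at 1 week and 1624 CPM (1598 to 1650.0, from 14996 UMIs) at 5 weeks. It was 1.63-fold above WT at 1 week and 4.19-fold at 5 weeks, the highest 5-week ratio of the 36. The lectins that hand glycoproteins to the ligase were also higher in the mutants. *Os9* gave 70.2 CPM (63.1 to 77.8), 179.8 CPM (171 to 189) and 116 CPM (109 to 123), highest at 1 week at 2.56-fold over WT. *Erlec1* gave 111 CPM (102 to 120.4), 164 CPM (156 to 173) and 274 CPM (264 to 285), highest at 5 weeks at 2.47-fold, and with hormones kept past 2-fold at both times, at 1.40 and 1.37.

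The 3 derlins did not move alike. *Derl1* gave log2 ratios of 0.61 (0.49 to 0.73) at 1 week and 0.17 (0.04 to 0.29) at 5 weeks, and *Derl2* -0.94 (-1.05 to -0.83) and -0.31 (-0.41 to -0.21). *Derl3* gave 24.6 CPM (20.5 to 29.2, from 126 UMIs), 4.56 CPM (3.24 to 6.23, from 39 UMIs) and 34.1 CPM (30.4 to 38.1, from 315 UMIs), 5.39-fold lower at 1 week and above WT at 5 weeks. The ligase *Syvn1* gave -0.29 (-0.62 to 0.05), or 0.55 with hormones kept, and 0.61 (0.32 to 0.91), and its partner *Sel1l* 0.82 (0.67 to 0.98) and 0.46 (0.31 to 0.62). *Edem1* gave 0.34 (0.16 to 0.52) and -0.39 (-0.58 to -0.20), with signs that differ between the times. *Hm13*, the signal peptide peptidase, gave -0.83 (-0.95 to -0.70) and 0.12 (0.02 to 0.23), its 1-week value coming to 0.01 with hormones kept.

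Of the sensors, *Atf6* and *Ern1* rose at 1 week, and none passed 2-fold at 5 weeks. *Atf6* gave 59.6 CPM (53.1 to 66.7) in WT, 129.9 CPM (122 to 138) at 1 week and 87.6 CPM (81.7 to 93.8) at 5 weeks, and *Ern1* (IRE1) 66.7 CPM (59.8 to 74.1), 139.5 CPM (132 to 148) and 72.4 CPM (67.1 to 78.1). Both were highest at 1 week, 2.18-fold and 2.09-fold above WT, with lower interval bounds of 0.94 and 0.89 on the log2 scale that fell under 2-fold. *Eif2ak3* (PERK) gave -0.12 (-0.43 to 0.20) and 0.21 (-0.08 to 0.51), both intervals holding 0. Total *Xbp1* RNA gave -0.25 (-0.35 to -0.16) and -0.25 (-0.34 to -0.15), and its spliced form cannot be told apart in 3′ counts. The 1-week values of *Eif2ak3* and *Xbp1* turned to 0.72 and 0.58 with hormones kept.

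At 5 weeks *Hspa5*, *Herpud1* and *Erlec1* rose in beta cells and no member fell. That was 3 of 36, against 4.87% of 9137 genes that rose and 4.91% that fell, and the median log2 ratio was 0.20 over the members and 0.10 over all genes. The closest to falling were *Fkbp11* at -0.99, *Fkbp2* at -0.95, *Dnajb9* at -0.74 and *Ppib* at -0.74, and the closest to rising *Calr* at 0.89. In all, 26 members lay above 0 and 10 below. The 3 risen members were kept under every alternative tried. Median-of-ratios scaling, keeping cells inside more than 1 gate and taking out acinar RNA each added 1 fallen member, and in cells of 2000 or more UMIs both *Fkbp11* and *Fkbp2* fell, at -1.07 and -1.01.

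Between the mutant libraries, which leaves the WT library out, 7 members were 2-fold higher at 5 weeks than at 1 week and none lower. These were *Fkbp11*, *Derl3*, *Manf*, *Sdf2l1*, *Herpud1*, *Fkbp2* and *Hsp90b1*, against 5.09% of 9671 genes that were higher and 9.09% that were lower. *Fkbp11* was 21.3-fold higher, a log2 ratio of 4.41 (4.12 to 4.72), *Derl3* 7.48-fold and *Manf* 3.71-fold. *Hspa5* was 1.57-fold higher. Lower at 5 weeks were *Ern1* at -0.95 (-1.08 to -0.81) and *Atf6* at -0.57 (-0.70 to -0.44). The median over the members was 0.64 and over all genes -0.22. With hormones kept, *Fkbp11*, *Derl3* and *Manf* remained 2-fold higher at 5 weeks, and *Ern1*, *Edem1*, *Os9*, *Atf6*, *Derl1*, *Sel1l* and *Canx* were 2-fold lower, where 1.74% of all genes were higher and 49.6% lower.

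In alpha cells, which the *Ins1* driver is not meant to recombine, members moved as well. The paper proposes, however, that some *Gcg*-expressing cells of mutant islets derive from beta cells that lost *Taf4*. Its lineage tracing, at a time later than either mutant library, found a mark of beta-cell origin in most *Gcg*-expressing cells within the islets. Alpha cells at the edge of the islets lacked that mark. A gate on *Gcg* cannot tell cells derived from beta cells from other alpha cells, and their share in the class was not tested. At 1 week *Calr*, *Sel1l* and *Atf6* rose and *Fkbp11*, *Manf*, *Fkbp2*, *Pdia4* and *Sdf2l1* fell, 3 and 5 of the 32 members with 100 UMIs, against 19.9% and 8.26% of 5215 genes. *Fkbp11* gave 73.9 CPM (60.3 to 89.7, from 102 UMIs) in WT, 12.98 CPM (9.04 to 18.1, from 35 UMIs) at 1 week and 48.8 CPM (41.2 to 57.2, from 149 UMIs) at 5 weeks, and was 5.69-fold lower at 1 week. *Manf* gave 688 CPM (645 to 733), 209.9 CPM (193 to 228) and 784 CPM (753 to 816), 3.28-fold lower at 1 week and above WT at 5 weeks. *Fkbp2* gave 516 CPM (479 to 555), 182 CPM (167 to 199) and 513 CPM (488 to 539), 2.83-fold lower at 1 week with overlapping intervals for WT and 5 weeks. Acinar RNA estimated in the same way would account for 16.8% of the *Fkbp11* UMIs of WT alpha cells. Ratios in beta and alpha cells share the libraries, so a difference between libraries enters both.

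*Calr* gave 245 CPM (219.5 to 273) in WT alpha cells, 563 CPM (535 to 592) at 1 week and 325 CPM (305 to 345) at 5 weeks, highest at 1 week at 2.30-fold over WT. *Sel1l* gave 27.5 CPM (19.5 to 37.8), 66.8 CPM (57.4 to 77.3) and 35.7 CPM (29.3 to 43.0), and *Atf6* 31.2 CPM (22.6 to 42.0), 84.6 CPM (73.9 to 96.3) and 34.0 CPM (27.8 to 41.2), both likewise highest at 1 week. *Hspa5* gave 466 CPM (431 to 503), 866 CPM (832 to 902) and 1018 CPM (983 to 1055), its 1-week log2 ratio of 0.89 (0.77 to 1.02) lying under 2-fold. With hormones kept *Hspa5* was 1.23 at 1 week and 0.99 at 5 weeks in alpha cells. *Pdia4* gave 75.4 CPM (61.6 to 91.3), 34.5 CPM (27.8 to 42.3) and 72.7 CPM (63.4 to 82.9), and *Sdf2l1* 84.8 CPM (70.1 to 102), 40.1 CPM (32.9 to 48.4) and 173 CPM (159 to 189). Both were lowest at 1 week, but in WT cells of 2000 or more UMIs, which number 23, *Sdf2l1* came to a 1-week log2 ratio of 0.16. With hormones kept, 8 alpha members rose (*Hspa5*, *Hyou1*, *Calr*, *Herpud1*, *Sel1l*, *Derl1*, *Atf6* and *Ern1*) and 3 fell (*Manf*, *Fkbp11* and *Fkbp2*), where 32.4% of all genes rose and 4.77% fell.

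At 5 weeks *Hspa5*, *Herpud1* and *Sdf2l1* rose in alpha cells and none fell, 3 of 33 members, against 4.82% and 1.07% of 5349 genes. *Hspa5* was 2.19-fold above WT, a log2 ratio of 1.13 (1.00 to 1.25). *Herpud1* gave 175 CPM (153 to 198) in WT, 298 CPM (278 to 319) at 1 week and 407 CPM (384 to 430.0) at 5 weeks, 2.33-fold over WT at 5 weeks, and with hormones kept 1.11 and 1.08 on the log2 scale. *Sdf2l1* was 2.05-fold higher. These ratios were smaller than the 3.61-fold and 4.19-fold of *Hspa5* and *Herpud1* in beta cells, and the intervals of the log2 ratios did not overlap between the classes. Between the mutant libraries 5 alpha members (*Manf*, *Sdf2l1*, *Fkbp11*, *Fkbp2* and *Pdia4*) were 2-fold higher at 5 weeks than at 1 week and 2 (*Atf6* and *Ern1*) were lower, against 11.1% and 10.2% of 6635 genes. With hormones kept *Pdia4* left the higher members, and *Dnajb9*, *Calr*, *Canx*, *Sel1l* and *Derl1* joined the lower ones, making 4 and 7, where 5.56% of all genes were higher and 26.4% lower. In the comparison of 5 weeks with WT, with median-of-ratios scaling 2 rose and 1 fell, and with hormones kept 1 rose and 1 fell. With hormones kept 2.77% of all genes rose and 1.46% fell, so that those counts lie near the background. The shares of all genes with median-of-ratios scaling are not given here.

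**Figure D4:**
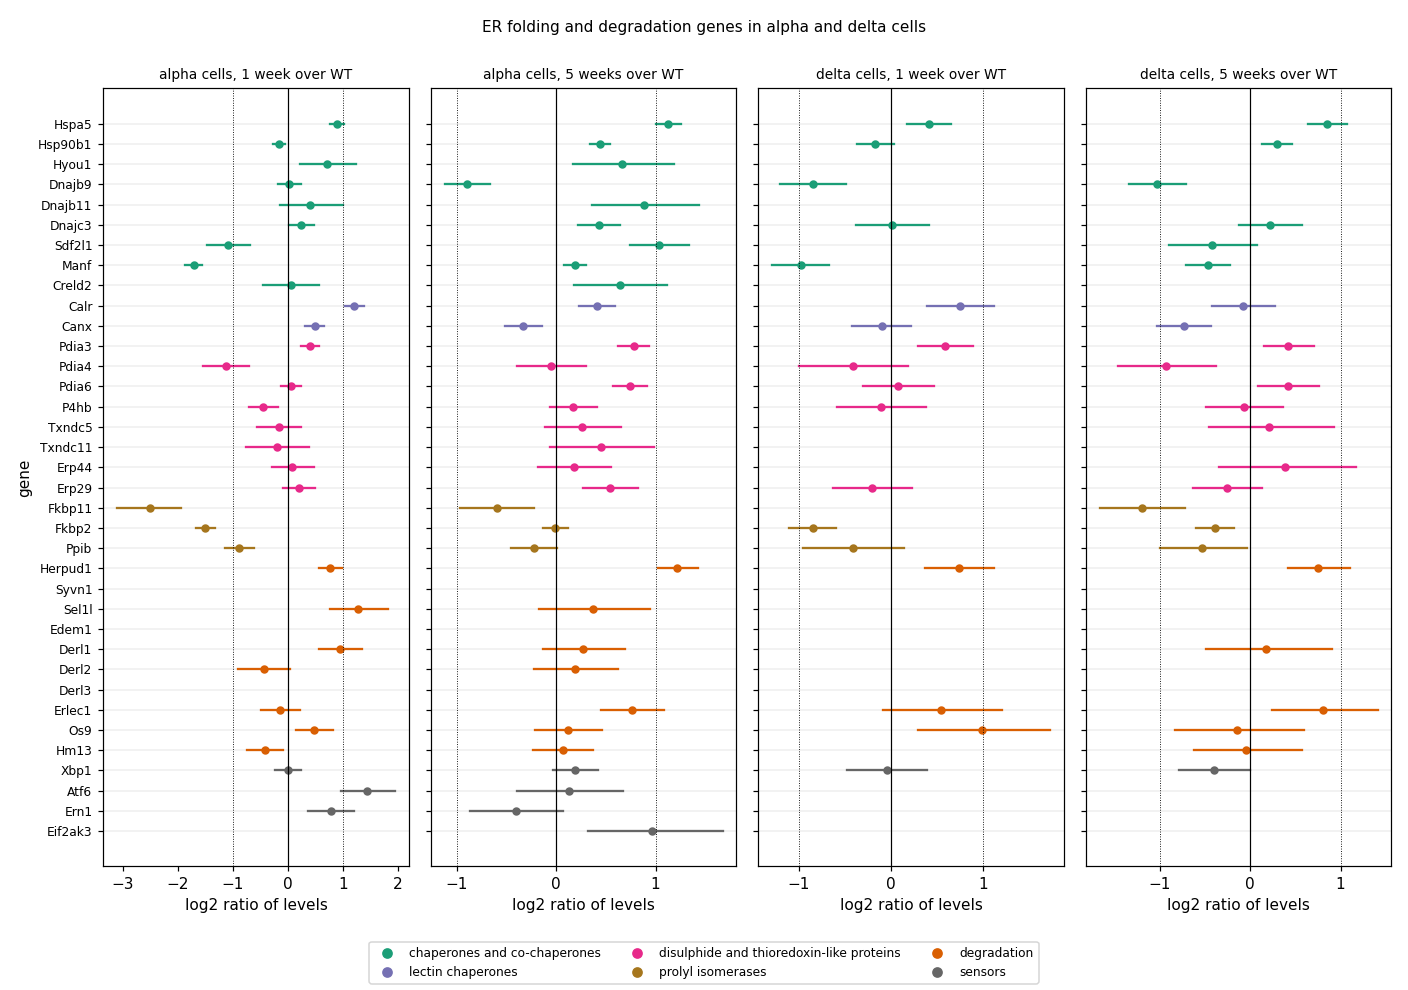
Log2 ratio of the level of each ER gene in alpha cells (2 left panels) and delta cells (2 right panels), 1 week over WT and 5 weeks over WT, with exact 95% intervals for counting error as bars, colours for the role of the genes and dotted lines at 2-fold; members with fewer than 100 UMIs over both libraries are not drawn, and the axes differ in range. In alpha cells Fkbp11 is lowest at 1 week at -2.51 and Herpud1 highest at 5 weeks at 1.22, and in delta cells intervals are wide and few points pass 2-fold.

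In delta cells counts were low, and 18 members at 1 week and 24 at 5 weeks had 100 UMIs. None passed 2-fold at 1 week, where 11.2% of 1321 genes rose and 7.72% fell. At 5 weeks *Dnajb9* and *Fkbp11* fell and none rose, against 1.79% and 3.78% of 2352 genes. *Fkbp11* gave 211 CPM (162 to 270.2, from 62 UMIs) in WT, 49.6 CPM (32.1 to 73.1, from 25 UMIs) at 1 week and 92.1 CPM (75.2 to 112, from 103 UMIs) at 5 weeks, its 1-week ratio staying out of the count for want of UMIs. *Dnajb9* gave 456 CPM (382 to 539), 254 CPM (212 to 302) and 223 CPM (197 to 253), highest in WT, and its 5-week call of -1.03 was lost with median-of-ratios scaling (-0.96) and with hormones kept (-0.98). *Hspa5* gave 707 CPM (614 to 810.0), 941 CPM (859 to 1030.1) and 1278 CPM (1212 to 1346), with a 5-week log2 ratio of 0.85 (0.64 to 1.07). The 1-week class held 37 cells, which limits its precision.

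The spread from cell to cell was compared after thinning each cell to 300 UMIs without hormones, which left out 149 WT and 30 5-week beta cells that were shallower and none at 1 week. Beta cells then held 4.07 UMIs of the 36 genes as a mean in WT, against 3.44 at 1 week and 5.77 at 5 weeks. Variance divided by the mean, which is near 1 when cells differ by counting alone, was 1.27, 2.49 and 1.38. The highest cell held 16, 29 and 24 UMIs. On the scale without hormones a lower mean at 1 week thus came with a wider spread. The 1-week beta gate began at 5% *Ins2*, against 20% in the other libraries, and took only cells of at least 5000 UMIs. How far that gate sets the spread was not tested. *Hspa5* gave the widest spread of any member, at 3.13 in 1-week beta cells against 1.13 in WT and 1.46 at 5 weeks, with 19 of 300 UMIs in the highest cell and 2 or fewer in 90% of cells. In alpha cells at 1 week the value for *Hspa5* was 1.22.

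**Figure D5:**
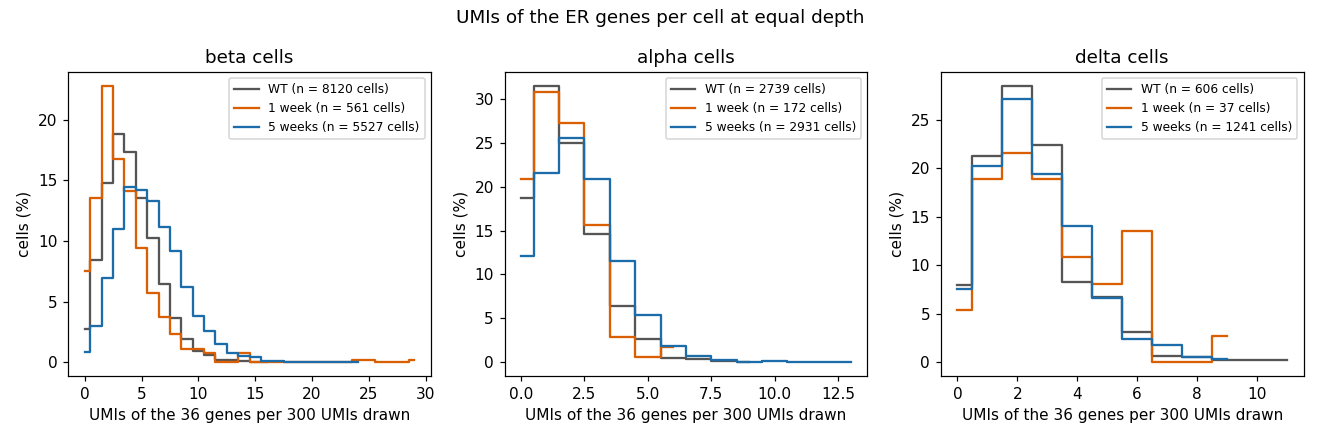
Distribution over cells of the number of UMIs from the 36 ER genes among 300 UMIs drawn per cell without hormones, as percent of cells, in beta, alpha and delta cells of WT, 1 week and 5 weeks. In beta cells the line peaks at 3 UMIs in WT, at 2 at 1 week and at 4 at 5 weeks, and the 1-week line reaches farthest, to 29; the 1-week delta line rests on 37 cells.

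Likeness to *Hspa5* among the 1-week beta cells was measured by Spearman's rho over 506 cells thinned to 5000 UMIs, which left out 55. These cells share 1 library, and the values are a description. Over 1855 genes with a mean of at least 0.5 UMIs the median rho was 0.04 and the 95th percentile 0.22. Of the other members 26 had that mean, with a median rho of 0.07 and 21 above 0. Most of the 1855 genes lay above 0 as well, since only 38.7% of them were below *Derl2*, which stood at 0.007. The highest were *Derl1* at 0.29, *Herpud1*, *Manf* and *Dnajb9* at 0.28 and *Hsp90b1* at 0.24, all above the 95th percentile. *Manf* and *Dnajb9* are among the members that had fallen in the class sums at 1 week, and *Ppib*, which had also fallen, gave -0.14. The gene most like *Hspa5* was *Ddit3* (CHOP), the stress factor induced below *Eif2ak3* and *Atf4*, at 0.66, followed by *Eif1* at 0.57 and *Ftl1* at 0.52.

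Other genes of the pathway were counted from a list of 46, of which 41 were listed in all libraries. In beta cells 40 had 100 UMIs. At 1 week 8 rose (*Ddit3*, *Trib3*, *Ppp1r15a*, *Tmbim6*, *Dnajb12*, *Sil1*, *Ero1l* and *Ufd1*) and 3 fell (*Selenok*, *Bet1* and *Edem3*), and at 5 weeks 3 rose (*Ddit3*, *Ppp1r15a* and *Selenos*) and *Mbtps2* fell. The shares of all genes were 16.8% and 7.21% at 1 week and 4.87% and 4.91% at 5 weeks, so that the counts lie near the background. With hormones kept 22 rose and *Selenok* fell at 1 week, where 57.7% of all genes rose and 2.38% fell. *Ddit3* gave 140.0 CPM (129.9 to 151, from 718 UMIs) in WT, 3398 CPM (3359 to 3437, from 29078 UMIs) at 1 week and 549 CPM (534 to 565, from 5074 UMIs) at 5 weeks. It was highest at 1 week on both scales. *Ppp1r15a* (GADD34), which reverses the translational arrest set by *Eif2ak3*, gave 54.2 CPM (48.0 to 60.9), 169 CPM (160.1 to 178) and 177 CPM (169 to 186), higher in both mutants than in WT. *Trib3* gave 8.58 CPM (6.23 to 11.5), 161 CPM (152 to 169) and 15.2 CPM (12.8 to 17.9), highest at 1 week. *Ero1lb*, the oxidase of the insulin-making ER, gave 1269.9 CPM (1239 to 1301), 643 CPM (626 to 660.4) and 979.8 CPM (959.7 to 1000.2), lowest at 1 week, and with hormones kept -0.14 at 1 week and -0.31 at 5 weeks on the log2 scale.

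The promoter motifs shown above were set beside the ratios. The 11 members with ERSE or ERSE-II had a median 5-week log2 ratio of 0.52 in beta cells, 10 above 0 and 1 below (*Canx*), and the 19 with a promoter but neither motif a median of 0.13, 12 above and 7 below. At 1 week the medians were -0.22 and -0.32. In alpha cells 9 of the 11 had 100 UMIs, with medians of 0.41 at 1 week and 0.64 at 5 weeks. Members without a match gave -0.20 over 17 and 0.18 over 18. In delta cells the medians were 0.08 over 7 members with a match and -0.26 over 8 without at 1 week. At 5 weeks they were 0.30 over 7 and -0.39 over 13. Keeping hormones raises 1-week ratios by 0.84, 0.34 and 0.27 in beta, alpha and delta cells. That turns each negative 1-week median here positive. The members with matches include *Hspa5* and *Herpud1*, the 2 highest ratios at 5 weeks in beta cells, and *Derl3*, one of the lowest there at 1 week.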

How the data were processed

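Live cells sorted from dissociated islets were captured by 10X 3′ single-cell RNA-seq. Per the labels and methods, the authors used bcl2fastq 2.17.1.14, Cell Ranger 3.1 on mm10 and Seurat 3.1.4, and deposited UMI counts per gene and cell, not normalized. For WT only, doublets were removed by hormones and by DoubletFinder, and the library was down-scaled by the authors.

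From the deposited counts, cells were classed by the hormone gates given above, UMIs were summed per class and library, and totals left out 8 hormone genes. Python 3.11.15, numpy 2.4.6, scipy 1.17.1 and matplotlib 3.10.9 were used. Levels carry exact Poisson intervals and ratios exact conditional intervals, at 95%. Each condition had 1 library, so no test was run. A gene was called at 2-fold with at least 100 UMIs over both sums, and genes were named if so called in beta or alpha cells or among the 5 highest in WT beta cells, the others being given by ratio. The members, marker lists and pathway list were chosen with earlier results of these data known. Cells in more than 1 gate were left out. Scripts were checked on simulated data. Alternatives changed scaling, gates, depth minimum, low-count minimum and members summed. Protein sequences were not used here. Other islet cells were not analysed here. The precision follows from 294172 to 9235287 non-hormone UMIs per class and library.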

Additional observations from a re-analysis of the deposited data

Results flagged for a closer look

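In 5 cases the counting interval of the log2 ratio over WT lay wholly on one side of 0 in beta cells and wholly on the other in alpha cells, with 1 library per condition and at least 100 UMIs over both libraries in either class. Further members had opposite signs with an interval that held 0 and are not listed. In no case was the difference between the classes tested. At 1 week *Hyou1* gave -0.49 in beta cells and 0.72 in alpha cells, *Dnajc3* gave -0.22 and 0.24, and *Canx* gave -0.18 and 0.48. With hormones kept in the totals the beta values of these 3 genes turned to 0.34, 0.62 and 0.66, so that both classes lay above 0. At 5 weeks *Manf* gave -0.053 in beta cells and 0.19 in alpha cells, the beta value turning to 0.01 with hormones kept, and *Erp29* gave -0.27 in beta cells and 0.54 in alpha cells.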

How the results depend on the processing

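The log2 ratio of the summed 36 genes kept its place within counting error in 28 of 60 alternatives over 3 classes and both times, moved beyond it in 31 and reversed in 1. That 1 is the 1-week ratio in beta cells, -0.25, which turned to 0.59 with hormones kept in the totals. Its other values were -0.30 with median-of-ratios scaling or with WT gates throughout, -0.29 in cells of 2000 or more UMIs, -0.28 without mitochondrial genes, *Gm42418* and *Malat1* or with acinar RNA taken out, -0.23 as a mean over cells, -0.50 without *Hspa5* and -0.16 without *Hspa5*, *Manf*, *Fkbp2* and *Fkbp11*. At 5 weeks the beta ratio, 0.48, was 0.55 with hormones kept, 0.50 without mitochondrial genes, *Gm42418* and *Malat1*, 0.45 in deeper cells, 0.26 without *Hspa5*, 0.45 without the 4 genes, 0.46 with acinar RNA taken out and 0.50 as a mean over cells. The alpha ratio at 1 week, 0.03, was 0.37 with hormones kept, 0.089 with median-of-ratios scaling, -0.082 in deeper cells, -0.076 without *Hspa5*, and 0.20 without the 4 genes. At 5 weeks, 0.41, it was 0.27, 0.29, 0.33 and 0.32 for hormones kept, median-of-ratios scaling, deeper cells and no *Hspa5*. The delta ratio at 1 week, -0.05, was 0.23 with hormones kept, -0.56 in deeper cells and 0.089 without the 4 genes, and at 5 weeks, 0.04, it was 0.11 with median-of-ratios scaling, 0.12 with cells in more than 1 gate kept, -0.34 in deeper cells and -0.064 without *Hspa5*. Deeper WT cells numbered 3058 beta, 23 alpha and 1 delta.

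Counts of members past 2-fold, rises and falls added together, stayed within 1.5 times in 40 alternatives and left that range in 8, all in delta cells. Such a total does not show a change of direction. With hormones kept, 4 rises and 7 falls in beta cells at 1 week became 11 and 4. In alpha cells 3 and 5 became 8 and 3 at 1 week, and 3 and 0 became 1 and 1 at 5 weeks. With WT gates the 1-week beta counts were 1 and 7. At 1 week, 0, the delta count was 2 at 20 UMIs, 3 with no minimum or with hormones kept, and 1 without mitochondrial genes, *Gm42418* and *Malat1*, with WT gates or with acinar RNA taken out. At 5 weeks, 2, it was 1 with median-of-ratios scaling or hormones kept. Taking out acinar RNA, leaving out the 4 genes and counting with hormones kept were chosen after seeing the data. So were the values with hormones kept for 5 weeks over 1 week, for beta over alpha or delta cells and for the order of libraries, and the role sums without *Hspa5* or *Herpud1*. Keeping hormones moved every ratio by 0.84 in beta, 0.34 in alpha and 0.27 in delta cells at 1 week and by 0.07, -0.14 and 0.04 at 5 weeks. No paired analysis was possible because each group holds replicate 1 only. With 1 library per condition, differences between animals, sex, depth and preparation cannot be told apart from those of genotype or time, and intervals cover counting error only.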
